A study of Mus musculus with 2 samples.

Results

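Water, glycerol and sodium enter and leave skin cells through membrane channels, and 9 genes of these channels were followed in the skin of newborn mice with and without PNPLA1. They are the aquaporins Aqp1, Aqp3, Aqp5, Aqp7 and Aqp9, the epithelial sodium channel genes Scnn1a, Scnn1b and Scnn1g, and Sgk1, which encodes a kinase that regulates this channel. They were picked by name, with earlier results of these data known. All 9 were found among the 30133 genes of the array, on 10 probes with 1 spot each. In Pnpla1-/- skin all 3 sodium channel genes and Aqp9 were at least 2-fold higher than in Pnpla1+/+ skin, Aqp5 was at least 2-fold lower, and Aqp1, Aqp3, Aqp7 and Sgk1 lay between these limits.

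Total RNA of 6 newborns per genotype at postnatal day 0 (P0), on a C57BL/6N background, was pooled in equal amounts, labelled with the dye Cy3 and hybridised to a 1-colour Agilent mouse array. The Pnpla1-/- animals lack PNPLA1 in all tissues and descend from the knockout-first allele Pnpla1tm1a(KOMP)Wtsi, freed of its reporter and resistance cassettes by flippase, and the controls were Pnpla1+/+ mice from the same crosses of heterozygotes. There was 1 array per genotype, so no test between genotypes was possible, a value has no error between mice, and every comparison describes these 2 pools. The question that the comparison addresses is how gene expression in newborn skin differs when PNPLA1, an enzyme needed for the acylceramides of the skin barrier, is absent.

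The array of Pnpla1+/+ skin had 71.7% and that of Pnpla1-/- skin 73.3% of its 43020 spots well above background, and no spot was saturated. Intensities are given as deposited, in arbitrary units. For comparison between arrays each was divided by the 75th percentile of its array (2108 for Pnpla1+/+ and 1734 for Pnpla1-/-), and a difference is the scaled log2 value of Pnpla1-/- skin minus that of Pnpla1+/+ skin. The error beside a measured difference was computed from the error that the scanner software gives for each spot, and it leaves out the variation between mice. A probe that stood well above background in just 1 of the pools has a bound in place of a difference. The dim side then counts at its own signal or at the array's detection floor, whichever is higher, the floor being the lowest signal called well above background (23.9 for Pnpla1+/+ and 21.7 for Pnpla1-/-). Pnpla1 itself measured 579 in the wild-type pool and 114 in the knockout pool, a difference of −2.07, and was still well above background in the knockout pool. The pools also differed in sex-linked genes, at 1.12 for Xist and −2.19 for Ddx3y, a gene of the Y chromosome, and the share of this in the values below was not tested. The labels name the tissue skin, while the design text also speaks of epidermis. All 7 fibroblast markers and all 7 skeletal muscle markers were well above background on both arrays, with intensities for the collagen gene Col1a2 of 275482 and 201776, so that transcripts of dermis and muscle were measured along with those of epidermis. In such bulk RNA fewer cells of a type and less RNA per cell cannot be told apart.

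Aquaporins are membrane pores that pass water along an osmotic gradient, and a subgroup of them, the aquaglyceroporins, also passes glycerol. In the epidermis the best known is AQP3 of basal keratinocytes, which carries water and glycerol and bears on the hydration of the stratum corneum. The epithelial sodium channel is built of an alpha, a beta and a gamma subunit, encoded by Scnn1a, Scnn1b and Scnn1g. It takes up sodium at the surface of kidney, lung and colon epithelia and is also made by keratinocytes, where it is known for a part in differentiation and in barrier formation. Steroid hormones induce SGK1, which phosphorylates the ubiquitin ligase NEDD4L and so keeps the channel at the membrane, while membrane-bound serine proteases raise the channel's activity by cleaving it.

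Of the members, 8 had an entry among the RefSeq promoters of GRCm38.p6, in 15 windows, and the exception was Scnn1a. The 250 bases before the transcription start are shown for the neighbouring pair Scnn1g and Scnn1b, which were higher together, for Aqp9, which was also called higher, and for Aqp5, the member called lower. Each runs from 5′ to 3′ on the strand of its gene, and capitals mark the letters that match one of 5 searched motifs.
Scnn1g (GRCm38.p6, chr7:121734229-121734478, plus strand): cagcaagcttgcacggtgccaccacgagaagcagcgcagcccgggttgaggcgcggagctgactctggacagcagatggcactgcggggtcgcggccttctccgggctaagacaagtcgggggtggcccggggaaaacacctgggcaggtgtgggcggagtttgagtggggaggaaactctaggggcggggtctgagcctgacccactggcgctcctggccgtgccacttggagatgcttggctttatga
Scnn1b (GRCm38.p6, chr7:121864788-121865037, plus strand): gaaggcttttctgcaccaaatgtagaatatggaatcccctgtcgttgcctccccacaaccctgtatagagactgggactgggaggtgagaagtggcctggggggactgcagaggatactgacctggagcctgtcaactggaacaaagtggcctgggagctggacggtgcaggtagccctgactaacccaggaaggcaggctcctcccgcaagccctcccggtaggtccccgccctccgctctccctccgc
Aqp9 (GRCm38.p6, chr9:71162634-71162883, minus strand): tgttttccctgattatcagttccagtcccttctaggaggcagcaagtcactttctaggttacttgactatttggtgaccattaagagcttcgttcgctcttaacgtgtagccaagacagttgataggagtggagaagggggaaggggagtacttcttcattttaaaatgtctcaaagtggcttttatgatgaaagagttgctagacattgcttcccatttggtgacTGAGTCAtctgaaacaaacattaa
Aqp5 (GRCm38.p6, chr15:99590778-99591027, plus strand): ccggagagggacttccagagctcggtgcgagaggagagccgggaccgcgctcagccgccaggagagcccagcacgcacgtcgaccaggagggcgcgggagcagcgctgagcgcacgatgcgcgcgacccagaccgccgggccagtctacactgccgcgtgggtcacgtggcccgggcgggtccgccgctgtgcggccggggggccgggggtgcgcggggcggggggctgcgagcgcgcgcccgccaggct

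The motifs were ACANNNTGT, the core of a glucocorticoid receptor site, TGANTCA of AP-1, AACCGGTT of the Grainyhead-like factors and GCCNNNGGC of AP-2 on both strands, and TATAAA on the strand of the gene. Among all 32851 windows of this length the shares that hold them were 5.84%, 6.75%, 0.116%, 13.7% and 7.59%. Of the 2 windows of Aqp9, the one shown holds the AP-1 letters TGAGTCA, starting 24 bases before the transcription start, and these letters are in no other window of a member. The shown windows of Scnn1g, Scnn1b and Aqp5 hold none of the 5. Of the 6 windows of Sgk1, 2 hold the glucocorticoid receptor core and 2 the TATAAA letters, and the window of Aqp3 holds TATAAA starting 29 bases before the start. The AP-2 letters are in the window of Aqp1, as GCCGAGGGC, and in 1 window of Sgk1, as GCCCAGGGC. The Aqp5 window is 78.4% G and C with 38 CG pairs, against medians of 52.4% and 6 over all windows, whereas the Aqp9 window shown is 41.6% G and C with 3 CG pairs. A match of letters is a description of the window and not a binding site.

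Several members are neighbours in the genome. By the probe positions of the scanner files, on mm9, the probes of Scnn1g (chr7:128911932-128911991) and Scnn1b (chr7:129061584-129061643) lie 149.6 kb apart. The probes of Aqp7 (chr4:40980431-40980490) and Aqp3 (chr4:41039962-41040021) lie 59.5 kb apart. The first Aqp5 probe (chr15:99424655-99424714) lies between those of Aqp2 and Aqp6, 11.1 kb and 9.96 kb away. The probes of Aqp1 (chr6:55298480-55298539), Scnn1a (chr6:125294843-125294902), Aqp9 (chr9:70978252-70978311) and Sgk1 (chr10:21719507-21719566) stand apart from the other members. The exon that each probe reads was not determined here.

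The genes of the alpha, beta and gamma subunits of the sodium channel were all higher in Pnpla1-/- skin. Scnn1a, whose alpha subunit is required for a working channel, measured 2877 in the wild-type pool and 7035 in the knockout pool, a difference of 1.57 ± 0.20 (scanner error, 1 array per genotype) or 2.97-fold. Scnn1b, for the beta subunit, went from 510.2 to 906, a difference of 1.11 ± 0.21 or 2.16-fold. Scnn1g, for the gamma subunit, had 21.9 in Pnpla1+/+ skin, which was not well above background, and 113 in Pnpla1-/- skin, so that it was at least 5.73-fold higher, a bound of 2.52, whereas normexp background correction gave 1.35. Over all 22374 genes with a difference or a bound, 6.7% were at least 2-fold higher, 3.04% were at least 2-fold lower, and the median was 0.00. In this distribution 3.12% of the genes were higher than Scnn1a and 5.61% higher than Scnn1b, while Scnn1g, with a bound, has no rank. Of the 1120 genes that stood above background in the knockout pool alone, as Scnn1g and Aqp9 did, 29.5% were at least 2-fold higher. The neighbours Scnn1g and Scnn1b were thus on the same side of 2-fold, at a bound of 2.52 and at 1.11. With normexp they were closer, at 1.35 and 1.03. The value of Scnn1b fell under 2-fold with no scaling between arrays (0.83) and when the arrays were centred on the spike-in RNA (0.69).

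**Figure D1:**
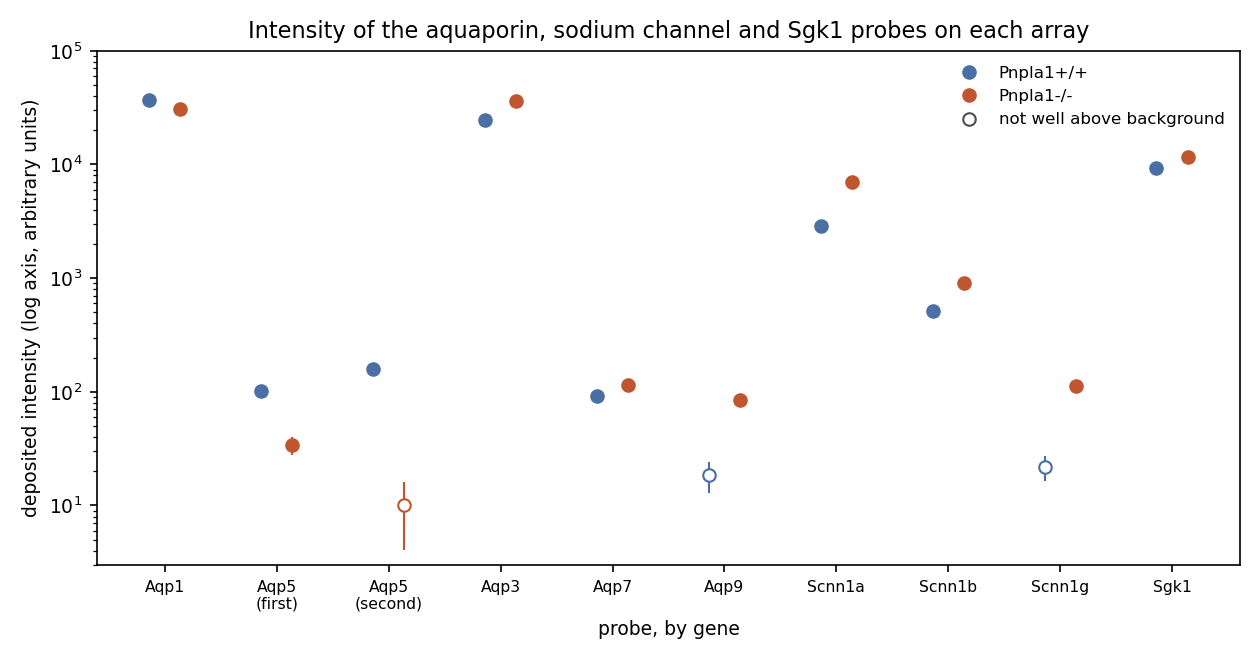
Deposited intensity (log axis, arbitrary units) of each of the 10 member probes on the Pnpla1+/+ and the Pnpla1-/- array, before scaling. Bars are the scanner software's error of the spot and open points were not well above background, as for Aqp9 (18.5) and Scnn1g (21.9) in Pnpla1+/+ skin and the second Aqp5 probe (10.1) in Pnpla1-/- skin.

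Sgk1, the kinase of the set, differed less than the 3 sodium channel genes. It measured 9301 in the wild-type pool and 11555 in the knockout pool, and the difference of 0.59 ± 0.20 (1.51-fold) did not reach 2-fold. Without scaling it was 0.31 and with spike-in centring 0.17.

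Among the aquaglyceroporins, Aqp9 was higher past 2-fold, while Aqp3 and Aqp7 were higher by less. Aqp3, the glycerol and water channel of basal keratinocytes, measured 24516 in the wild-type pool and 36496 in the knockout pool, a difference of 0.86 ± 0.20 or 1.81-fold. Aqp7, known for glycerol release from adipocytes, went from 91.4 to 115, a difference of 0.61 ± 0.24 or 1.53-fold. Aqp9, a channel for water, glycerol and other small solutes that is known from liver and from leukocytes, had 18.5 in Pnpla1+/+ skin, not well above background, and 84.4 in Pnpla1-/- skin. It was therefore at least 4.29-fold higher, a bound of 2.10, whereas normexp background correction gave 1.10. Before background subtraction the mean pixel value of its spot was 71.1 in Pnpla1+/+ and 144 in Pnpla1-/- skin over a local background of 24.5 and 23. All 3 kept their direction under every alternative setting that gave a value, with Aqp7 nearest to 0 at 0.18 under spike-in centring.

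The 2 members that are selective for water differed from each other. Aqp1, a water channel of endothelium and red blood cells, measured 37083 in the wild-type pool and 30887 in the knockout pool, and the difference of 0.02 ± 0.20 was smaller than its error. Its sign turned under 5 of 10 alternatives, among them no scaling (−0.26) and spike-in centring (−0.41). Aqp5, the water channel of sweat, salivary and lacrimal glands, was read by 2 probes. The first, with the higher mean log2 signal over both arrays, had 102 in Pnpla1+/+ and 34.0 in Pnpla1-/- skin, a difference of −1.30 ± 0.32, or 2.47-fold lower. The second probe (chr15:99425138-99425197 of mm9) had 159.7 in Pnpla1+/+ skin and 10.1 in Pnpla1-/- skin, the latter not well above background, and was at least 6.05-fold lower. Both probes were lower in the knockout pool, and in the distribution over all genes 1.70% were lower than the first. All 4 Aqp5 intensities were dim, and normexp background correction brought the value of the first probe to −0.46, which is under 2-fold.

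**Figure D2:**
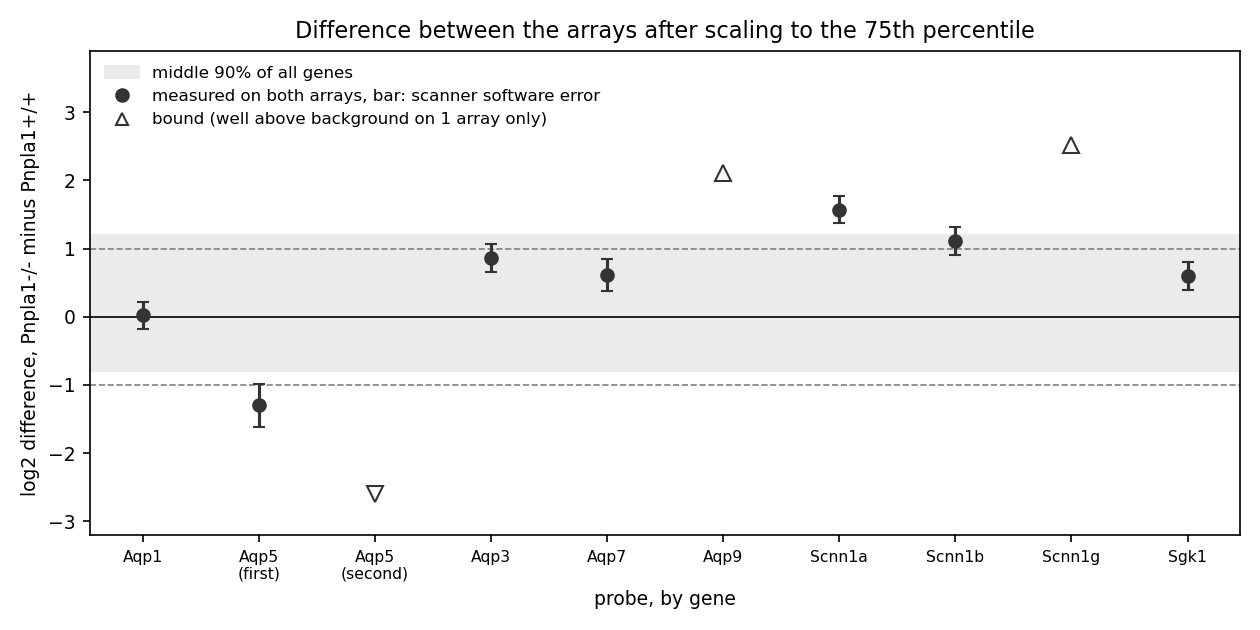
Log2 difference between the arrays, Pnpla1-/- minus Pnpla1+/+, after scaling to the 75th percentile, for each member probe. Bars are the scanner software's error, triangles are bounds for probes well above background on 1 array only, dashed lines mark 2-fold and the grey band runs from −0.80 to 1.20, with 5% of all genes below it and 5% above. Scnn1a, Scnn1g and Aqp9 lie above the band and both Aqp5 probes below it.

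Over the 9 members, 4 were at least 2-fold higher (44.4%, against 6.7% of all genes) and 1 at least 2-fold lower (11.1%, against 3.04%), and their median was 0.86 against 0.00 for all genes. Of the 4, Aqp9 and Scnn1g have bounds and were detected in the knockout pool alone, and 29.5% of such genes were at least 2-fold higher. The members were chosen with earlier results of these data known, so these shares describe the members and are no test of enrichment. At 1.5-fold 7 members were higher and 1 lower, against 13.8% and 9.35% of all genes, and at 3-fold 2 were higher and 0 lower, against 3.06% and 1.02%. The split of all genes at 2-fold was 68.8% higher, and it moved with the scaling to 41.2% with no scaling, 27.9% with spike-in centring and 58.8% with quantile normalization. The members' median stayed above 0 under all 10 alternatives that gave one, from 0.43 to 0.87.

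**Figure D3:**
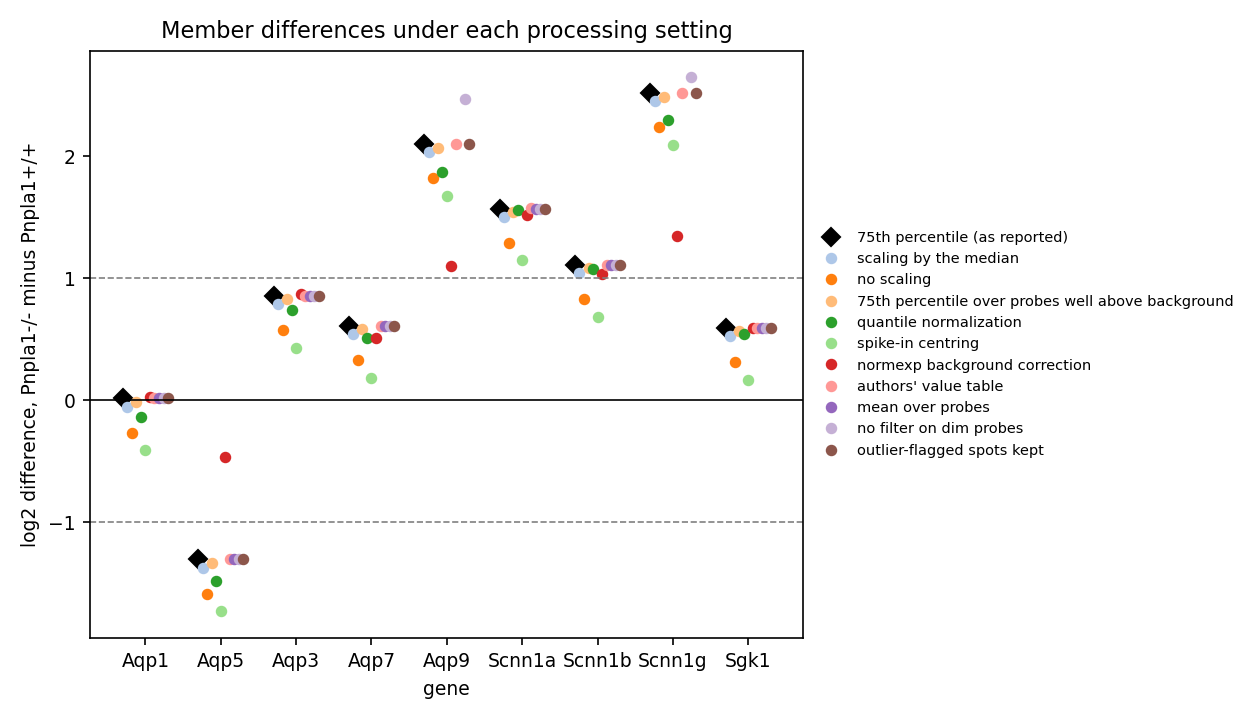
Log2 difference of each member, Pnpla1-/- minus Pnpla1+/+, as reported (diamond) and under 10 alternative settings (circles), with dashed lines at 2-fold. Each member other than Aqp1 keeps its sign, while Scnn1b lies under the upper line with no scaling and spike-in centring and Aqp5 above the lower line with normexp.

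Counts past 2-fold in the related lists below compare with 6.7% of all genes higher and 3.04% lower. The other aquaporin genes on the array were all dim. Of 7, Mip and Aqp6 stayed below background in both pools, and the 5 others had a median of 0.33 (−0.09 with spike-in centring). The 4 of these that were measured on both arrays lay between −0.45 and 0.49, and Aqp12, detected in the knockout pool alone, had a bound of 0.72, or 1.04 with no filter on dim probes. Aqp2, the water channel of the kidney's collecting duct and a neighbour of Aqp5, had 161 in Pnpla1+/+ and 167 in Pnpla1-/- skin, a difference of 0.33 (−0.09 with spike-in centring). Aqp11, an aquaporin of intracellular membranes, had 179.7 and 159.6, a difference of 0.11 that turned negative with no scaling and spike-in centring. Of the neighbours of Aqp5, Aqp2 was thus not lower past 2-fold, and Aqp6 could not be read.

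The acid-sensing channels belong to the same superfamily as the epithelial sodium channel and open on extracellular protons. Of 5 genes, Asic5 was below background on both arrays, and the 4 others had a median of −0.59, which ranged from −1.01 with spike-in centring to −0.07 with averaged probes. Asic2, detected in the wild-type pool alone, had a bound of −0.88 and was past 2-fold lower under 4 of the 9 alternatives that gave it a value. Normexp brought it to −0.17. Asic4 went from 138 in Pnpla1+/+ to 52.8 in Pnpla1-/- skin, a difference of −1.10, which was −0.51 after normexp background correction. Asic3, the other of the brightest pair, had 98.9 and 66.4, and its probes gave −0.29 and 0.16. None of the 4 was higher past 2-fold.

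The genes that regulate the sodium channel's turnover and phosphorylation showed no member past 2-fold among 12, with a median of −0.18 and 9 of 12 below 0. Nedd4, a ubiquitin ligase related to NEDD4L, had 30748 in Pnpla1+/+ and 19559 in Pnpla1-/- skin, a difference of −0.37 at 1 probe and 0.27 at the other. Wnk1, a kinase upstream of ion cotransporters, was at −0.05 (10688 and 8471), and its sign turned when its probes were averaged. Sgk2 and Sgk3, the paralogs of Sgk1, were at a bound of −0.96 and at −0.31, on the other side of 0 from Sgk1 at 0.59. Sgk2 and the kinase gene Wnk4 (−0.96) were past 2-fold lower when scaled by the median, with no scaling, with quantile normalization and with spike-in centring. Normexp brought them nearer to 0, at −0.15 for Sgk2 and −0.61 for Wnk4.

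Of 10 steroid receptors, steroid-converting enzymes and glucocorticoid targets, 1 was higher and 1 lower past 2-fold, against 6.7% and 3.04% of all genes. Both were converting enzymes. Hsd11b1, which regenerates active glucocorticoid, went from 468 to 801, a difference of 1.06, and fell under 2-fold under 4 of 10 alternatives. Hsd11b2, which inactivates glucocorticoid, went from 62.5 to 22.2 and was at least 2.31-fold lower, a bound of −1.21, or −0.37 with normexp. The glucocorticoid-induced genes Tsc22d3 (12749 and 14055) and Per1 (25771 and 19281) were at 0.42 and −0.14. Tsc22d3 turned to −0.00 with spike-in centring, so these targets stayed within 2-fold as Sgk1 did.

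Among 8 channel-activating proteases and their inhibitors, 2 were at least 2-fold higher and none lower, against 6.7% and 3.04% of all genes. Their median was 0.49 (0.21 with no scaling and 0.07 with spike-in centring). Tmprss2, a transmembrane serine protease, went from 51.9 in Pnpla1+/+ to 128 in Pnpla1-/- skin, a difference of 1.59, or 1.01 with normexp. Spint1, which encodes not a protease but an inhibitor of such proteases, went from 4344 to 7400 with a difference of 1.05, and it was under 2-fold under 3 of 10 alternatives. The brightest pair were Tmprss4 (30384 and 28510.0), at 0.19 and below 0 with no scaling and spike-in centring, and Tmprss13 (12548 and 17398), at 0.75. Prss8, the classical channel-activating protease of epithelia, was at −0.36 with 1 probe and 0.14 with the other.

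The sodium-potassium ATPase removes the sodium that enters through the channel. Of its 14 subunit and regulator genes, 13 had a difference, of which 2 were at least 2-fold higher and none lower, against 6.7% and 3.04% of all genes. Their median was 0.19 and was below 0 with no scaling and spike-in centring. Atp1b1, for a beta subunit, went from 1029 in Pnpla1+/+ to 3328 in Pnpla1-/- skin, a difference of 1.98 or 3.93-fold. Fxyd4, a small regulator of the pump that is known from the kidney's collecting duct and colon, went from 379.9 to 734, a difference of 1.23 that fell under 2-fold with no scaling and spike-in centring. Fxyd1 (14750.5 and 12556), another regulator of the pump, was at 0.05, and below 0 under 4 of 10 alternatives.

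Glycerol that enters through AQP3 or AQP9 is phosphorylated by glycerol kinase before it is built into lipids. Of 11 genes of glycerol uptake and use, 2 were at least 2-fold higher and none lower, against 6.7% and 3.04% of all genes. Their median was 0.36, and −0.07 with spike-in centring. Gk, for glycerol kinase, went from 186 in Pnpla1+/+ to 1849 in Pnpla1-/- skin, a difference of 3.60 or 12.1-fold. It stayed past 2-fold under all 10 alternatives. Gk2, a related kinase known from testis, had 8.45 and 48.1 and was at least 2.45-fold higher, a bound of 1.29 that was under 2-fold with spike-in centring and with normexp. Of the 1120 genes above background in the knockout pool alone, as Gk2 was, 29.5% were at least 2-fold higher. Dgat2 and Pnpla2, enzymes of triacylglycerol synthesis and breakdown and the brightest pair of the list, were at 0.12 (47992 and 42969) and −0.06 (30106 and 23799), and Dgat2 turned negative with 3 alternatives. Gpd1, which makes glycerol phosphate from a product of glycolysis, was at 0.99 (20734 and 33817).

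**Figure D4:**
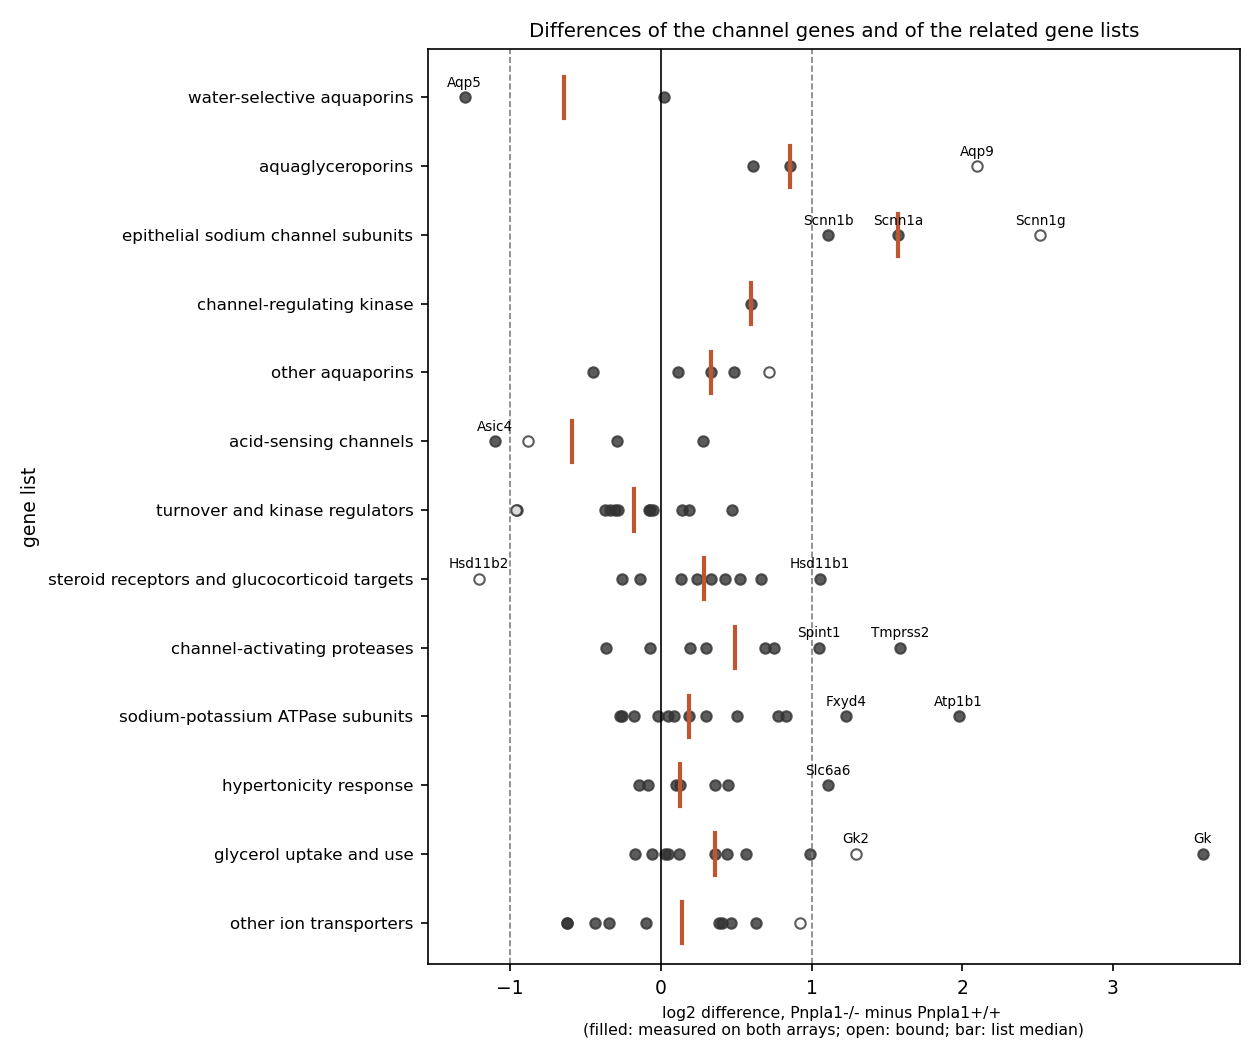
Log2 difference, Pnpla1-/- minus Pnpla1+/+, of each gene with a value in the member groups and in the related gene lists (filled points measured on both arrays, open points bounds, bars list medians), with dashed lines at 2-fold and names for genes past it. The 3 sodium channel genes lie past 2-fold at 1.11, 1.57 and a bound of 2.52, and Gk, at 3.60, lies farthest to the right.

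Skin holds several cell types that express these channels, so their markers are given beside the members. Markers past 2-fold compare with 6.7% of all genes higher and 3.04% lower. Keratinocyte markers had medians near 0, at 0.14 for the 7 basal markers and 0.20 for the 7 suprabasal markers, and all were well above background on both arrays. Probes differ in brightness for the same amount of RNA, so a list's summed level compares the pools and not its genes. The summed level, in units of the array's 75th percentile, was 199 in Pnpla1+/+ and 230 in Pnpla1-/- skin for the basal markers, with the Krt5 probe the brightest, and 381 and 402 for the suprabasal markers, with the Krt10 probe the brightest. Within these lists Krt14 was higher by 1.35, Dsc1 by 1.20 and Grhl3, a transcription factor of epidermal barrier formation, by 2.47, while Krt15 was at −1.67. Krt14 came under 2-fold with spike-in centring and Dsc1 with that and with no scaling. Both keratinocyte medians turned below 0 with no scaling, spike-in centring and quantile normalization, and the basal one also with averaged probes. Their part in the values of Aqp3, the sodium channel genes and Sgk1 was not tested.

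Endothelium and red blood cells are the known sources of Aqp1. The 8 endothelial markers had a median of 0.35 (−0.08 with spike-in centring), all well above background, with 1 past 2-fold (Vwf at 1.35) and a summed level of 9.56 in Pnpla1+/+ and 13.2 in Pnpla1-/- skin, the Cldn5 probe being the brightest. Of 7 red blood cell markers on the array, Epb42 and Rhag were below background on both arrays, and Alas2 and Slc4a1 were higher past 2-fold, at 1.32 and 1.11, and both came under 2-fold with spike-in centring, as did Vwf, and Slc4a1 also with no scaling and with normexp. The red blood cell markers' summed level was 39.9 in Pnpla1+/+ and 71.0 in Pnpla1-/- skin, most of it from Hba-a1, whose probe was the brightest. Aqp1 itself was at 0.02, and the part of these cells in its level was not tested.

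Adipocytes are the known source of Aqp7. Of their 8 markers, Lep was below background on both arrays, none was past 2-fold, the median was 0.10 (−0.18 with no scaling and −0.33 with spike-in centring) and the summed level was 95.4 in Pnpla1+/+ and 117 in Pnpla1-/- skin, with the Fabp4 probe the brightest. Of the 11 neutrophil and monocyte markers on the array, 6 were at least 2-fold higher and none lower, against 6.7% and 3.04% of all genes. Their median was 1.02 (0.59 with spike-in centring). Their summed level was 56.5 in Pnpla1+/+ and 64.4 in Pnpla1-/- skin, most of it from the brightest probe, that of Csf3r, at 0.04. The 4 largest were Cxcr2 (16.0 and 1177, at least 59.8-fold higher), Mmp8 (59.5 and 1209.7), Mpo (32.2 and 541) and Fpr2 (69.1 and 546), while Elane and Ly6g were at 0.05 and 0.42. With normexp the values were smaller, at 4.31 for Cxcr2, 3.69 for Mmp8, 2.98 for Mpo and 2.51 for Fpr2. Of the other 2 past 2-fold, Fpr1 was at 2.45, and Cd14, at 1.02, came under 2-fold under 5 of 10 alternatives. Itgam was at −0.03 by its brightest probe, but its probes ranged up to 2.84 and their average gave 1.32. The probes of Mpo ranged from 1.87 to 4.35. The part of these cells in the value of Aqp9 was not tested.

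Secretory glands are the known source of Aqp5. Of 8 gland markers, Foxa1 and Pip were below background on both arrays, and the 6 others had a median of −0.43 (−0.86 with spike-in centring and −0.05 with no filter on dim probes) and a summed level of 2.30 in Pnpla1+/+ and 2.25 in Pnpla1-/- skin, with the Prom1 probe the brightest (1528 and 976). Krt19 was lower by more than 2-fold, at −1.11 (263 and 100.5) though at −0.76 with normexp, and Ltf, which neutrophils also express, was higher at 3.33 (116 and 957) and is part of that sum. The part of gland cells in the value of Aqp5 was not tested.

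**Figure D5:**
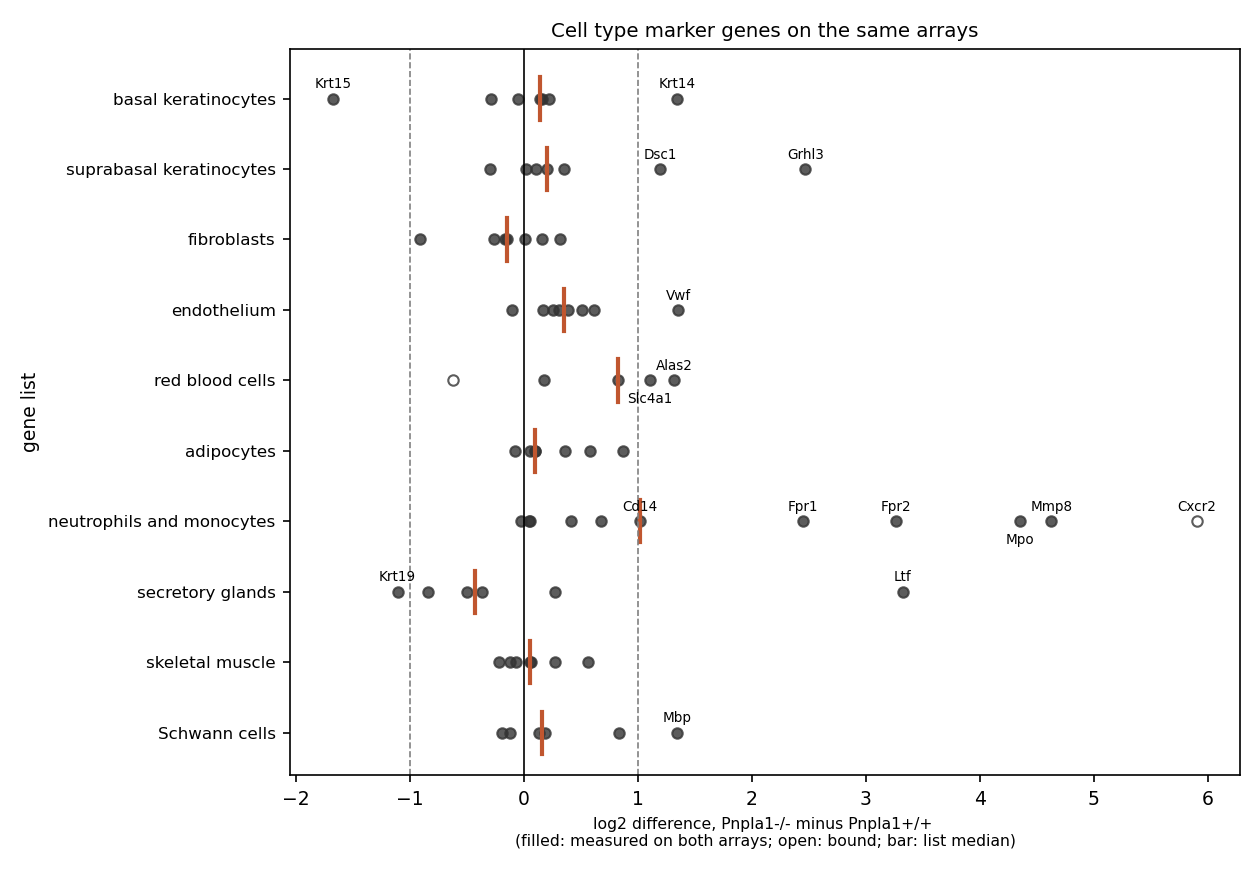
Log2 difference, Pnpla1-/- minus Pnpla1+/+, of each cell type marker with a value (filled points measured on both arrays, open points bounds, bars list medians), with dashed lines at 2-fold and names for genes past it. Of the neutrophil and monocyte markers 6 lie past the upper line, while the keratinocyte medians, at 0.14 and 0.20, lie near 0.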

How the data were processed

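Expression was measured in P0 skin on 2 Agilent 4x44K v2 arrays, 1 per genotype, grouped by the genotype in their labels. The authors deposited, from Agilent Feature Extraction 11.5.1.1, the background-subtracted, detrended intensity of each spot with its error and flags, on probes placed on mm9, and a table in which each value is the ratio of that intensity to 1 factor per array. Scans carried no normalization between arrays, and both arrays have the same slide and scan time in their headers.

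Control spots aside, the log2 of each intensity less the log2 of its array's 75th percentile was computed in Python 3.11.15, numpy 2.4.6 and pandas 2.3.3. Outlier spots of either array (138 and 82) were dropped, repeated spots averaged, and each gene read from its brightest probe (mean log2 signal over both arrays). Probes were renamed through RefSeq GRCm38.p6 (27502 by accession, 3549 by symbol, 404 by older symbol, 7974 kept), and members were matched by the name in the files. Of 30133 genes, 20680 were measured on both arrays, 1694 had a bound, 16 were detected on 1 array without giving a bound and 7743 were below background on both. With 1 array per genotype no test was run, and genes were counted at 2-fold. The number of arrays and the pooling of mice limit the precision. The technical SD of a difference, computed from repeated spots within each array, was 0.08. It is the median over 309 probes with at least 8 spots well above background on both arrays. It leaves out variation between labellings, hybridisations and mice, and does not cover dim probes. The computation was tested on simulated data.

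Named are all members and, per list, up to 4 genes with the largest value past 2-fold and the brightest pair, besides a few others chosen after their values were seen, and some genes that this rule names are not reported here. The members and lists were chosen with earlier results of these data known. Alternatives were median scaling, no scaling, the percentile over probes well above background, quantile normalization and normexp (offset 50) with limma 3.58.1 in R 4.3.3, the authors' ratios, centring of the arrays on 8 probes for the E1A spike-in RNA, averaged probes, no filter on dim probes, flagged spots kept, and thresholds of 1.5-fold and 3-fold.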

Additional observations from a re-analysis of the deposited data

How the results depend on the processing

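Of the 9 members, Aqp1 alone changed sign under an alternative, and Scnn1b, with no scaling and spike-in centring, and Aqp5, with normexp, left their side of 2-fold. The count of members at least 2-fold higher was 4, and became 3 with no scaling, 3 with spike-in centring, 7 at 1.5-fold and 2 at 3-fold. It became 2 when probes well above background on both arrays were averaged, since Aqp9 and Scnn1g then have no value by construction. The count at least 2-fold lower was 1, and became 0 with normexp and 0 at 3-fold. The members' median of 0.86 became 0.57 with no scaling, 0.74 with quantile normalization, 0.43 with spike-in centring and 0.61 with averaged probes. Of all genes with a value, 6.7% were higher and 3.04% lower (1499 and 681 of 22374), against 4.47% and 6.37% with no scaling (998 and 1424), 3.74% and 9.68% with spike-in centring (829 and 2147), 4.33% and 1.46% with normexp (958 and 322), 10.1% and 3.67% of 30133 genes with no filter on dim probes, 13.8% and 9.35% at 1.5-fold, and 3.06% and 1.02% at 3-fold. By construction, no scaling and spike-in centring shift each gene, and they moved the median of all genes by −0.28 and −0.43, while no filter moved it by 0.10. Relative to that shift the measured members were where they are reported. After scaling, the mean of the 8 spike-in probes differed by 0.43 between the pools, higher in the knockout, and which scaling matches the RNA content of the skin was not tested. Dim signals limit Aqp5, Aqp7, Aqp9 and Scnn1g. No paired analysis was possible because each genotype has 1 array, so no replicate could be left out and slide or scan could not be fitted.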

Other observations

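Other ion transporters and osmotic stress genes are given beside the 6.7% of all genes that were at least 2-fold higher and the 3.04% at least 2-fold lower. Of 12 sodium, chloride and acid transporters and potassium channels, Slc12a3 and Slc9a3 were below background on both arrays and none of the others was past 2-fold, with a median of 0.14 (−0.14 with no scaling and −0.29 with spike-in centring). Slc12a4, for a potassium-chloride cotransporter, had 10046 in the wild-type and 5353 in the knockout pool, a difference of −0.63 that was past 2-fold with spike-in centring, as was that of the bicarbonate cotransporter gene Slc4a4 (−0.62). The probes of the potassium channel gene Kcnma1 disagreed, at −0.10 for the brightest and up to 2.18. Of 7 genes of the response to hypertonicity on the array, 1 was past 2-fold. It was Slc6a6, for the taurine transporter, which went from 3825 to 6775, a difference of 1.11 that was 0.68 with spike-in centring and also under 2-fold with no scaling. The list's median was 0.13, and −0.30 with spike-in centring. Nfat5, the transcription factor of this response, was at 0.13 (368 and 331), below 0 with no scaling and spike-in centring, and the brightest pair, Slc38a2 (14395 and 15181) and Akr1b3 (14129 and 10965), were at 0.36 and −0.08.

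The 7 skeletal muscle markers had a median of 0.05 and none past 2-fold, with Myh8 (146871 and 146375) and Acta1 (143228 and 121934) at 0.28 and 0.05. The 7 fibroblast markers had a median of −0.15 and none past 2-fold, though Dpt, at −0.91, was past it with no scaling and spike-in centring, with Col3a1 (152334 and 126461) at 0.01. The 6 Schwann cell markers had a median of 0.16, with Mbp (2634 and 5500.4) past 2-fold at 1.34, though its probes ranged from 0.30 to 1.39. The muscle median was below 0 under 4 of 10 alternatives and the Schwann cell median with no scaling and spike-in centring, where Mbp came under 2-fold only with the latter.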
